A study of Rattus norvegicus with 4 samples.

Results

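The respiratory chain and the ATP synthase of the inner mitochondrial membrane were followed here as 87 nuclear genes, of 14217 named genes on the array. A gene was taken by its symbol: every Nduf gene, Sdha to Sdhd, every Uqcr gene and Cyc1, the Cox4 to Cox8 subunits and every Atp5 gene, with the probe set of the highest mean over the 4 arrays standing for each. They comprised 78 subunits, namely 34 of complex I, 4 of complex II, 8 of complex III, 17 of complex IV and 15 of the ATP synthase. The other members were 6 assembly factors of complex I, the supercomplex factor Cox7a2l, the inhibitor Atp5if1 and 1 pseudogene, Cox6c-ps1. Ndufa4 and Ndufa4l2 were counted with complex IV, to which the former protein is known to belong. In addition, 7 probe sets that carry several symbols matched the choice and were not used, so the counts do not cover every nuclear subunit.

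Complex I oxidises NADH and complex II oxidises succinate, and both pass the electrons to ubiquinone. Complex III hands them on to cytochrome c, and complex IV from there to oxygen. Complexes I, III and IV pump protons out of the matrix, and the ATP synthase uses their return to make ATP. Sertoli cells are known for converting much of their glucose to lactate, which they pass to the germ cells, while their own mitochondria can burn fatty acids.

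The cultures were Sertoli cells, which nurse the germ cells inside the seminiferous tubule, from 20-day-old male Sprague-Dawley rats. They were kept for 72 h at 32 degrees C in serum-free Ham's F-12 medium, with cAMP (2 arrays) or with no treatment (2 arrays). The sample titles call the arrays of each group biological replicates 1 and 2. The sources used here give neither the form and dose of cAMP nor whether animals were pooled or replicates were prepared separately. The p-values thus measure a spread that may be partly technical. RNA was read on 1-colour Affymetrix rat arrays as 1 signal per probe set, and signals of different probe sets are not compared with each other, only the same probe set between arrays.

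The arrays shared a trimmed mean signal of 125, and between 64.3% and 66.4% of their probe sets lay above a background of 14.2, the maximum over 27 probe sets for Bacillus transcripts. Across tested probe sets, which are not independent replicates, log2 signals correlated at 0.967 within the control pair and 0.984 within the cAMP pair, and control replicate 2 stood further from the cAMP arrays (0.895 and 0.900) than control replicate 1 (0.925 and 0.924). The 3' to 5' signal ratio of actin, which rises as RNA breaks down, ran from 1.65 to 2.25 and was highest on control replicate 2, whereas the same ratio of Gapdh, from 0.903 to 0.966, was lowest there. Of 13 Sertoli cell markers, 9 had a named probe set; Clu read 6858 and 7278 on the control arrays and 6072 and 6410 with cAMP, Cldn11 between 4821 and 5782 on the 4 arrays and Wt1 between 1452 and 1862. Rhox5 alone of the 9 lay below the limit for testing. Of the 8 tested, 2 rose, Inha by 2.04 and Dhh by 0.74 on the log2 scale, and 2 fell, Gata4 with a log2 difference of -0.94 and Aard with -0.51. Of other lists, 1 of 2 tested endothelial markers (Kdr) fell, and none of 3 tested macrophage markers and 1 tested Leydig cell marker passed. Of these 3 macrophage markers, Mrc1 and Lyz2 lay lower with cAMP (log2 differences -0.47 and -1.05) and Cd14 overlapped. The macrophage marker Cd68, below the limit for testing, read 4.1 and 6.2 in control and 28.1 and 45.2 with cAMP. Alas2 rose and was the only red cell marker tested. The globin gene Hba-a3 lay at background on all 4 arrays. Hbb read 5.3 and 5.3 in control and 22.9 and 3.8 with cAMP. Slc4a1 read 9.8 and 10.9 in control and 27.6 and 21.2 with cAMP. These are bulk cultures, so fewer cells of a type and less RNA per cell cannot be told apart.

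For most of these genes the signal with cAMP was close to that without it. Of the 87 members, 83 were bright enough to be tested, 4 of them rose, 4 fell and 75 did not pass (limma, Benjamini-Hochberg adjustment over all 18625 probe sets tested, threshold 0.05). The 8 called members were 9.64% of those tested, beside 15.4% of the 10035 named genes tested in the whole table. The 4 that rose stood beside a background of 8.27% of genes called higher, and the 4 that fell beside 7.14% called lower. The median log2 difference, cAMP minus control on the scale log2(signal + 16), was 0.0059 for the members and -0.029 for all genes tested. Of the 83 members 61 lay within 0.25 of no change on that scale, or 73.5%, beside 48.5% of all genes, and 1 differed by more than 1, or 1.20%, beside 8.08%. The size of the difference without its sign had a median of 0.13 for the members and 0.26 for all genes. The standard errors of the members had a median of 0.13, against 0.18 for all genes, so smaller differences could pass here than in the table at large. The replicates of the members also lay closer together. Their median SD on that scale was 0.088 in control and 0.059 with cAMP, against 0.146 and 0.101 for all genes. All genes were not matched to the members for signal or spread, and the part of this in the smaller differences was not tested.

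The 2 groups of arrays did not overlap for 47 of the 83 members, 23 with cAMP above and 24 below. That is 56.6%, beside 61.3% of all genes tested. All 8 called members were among them.

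**Figure D1:**
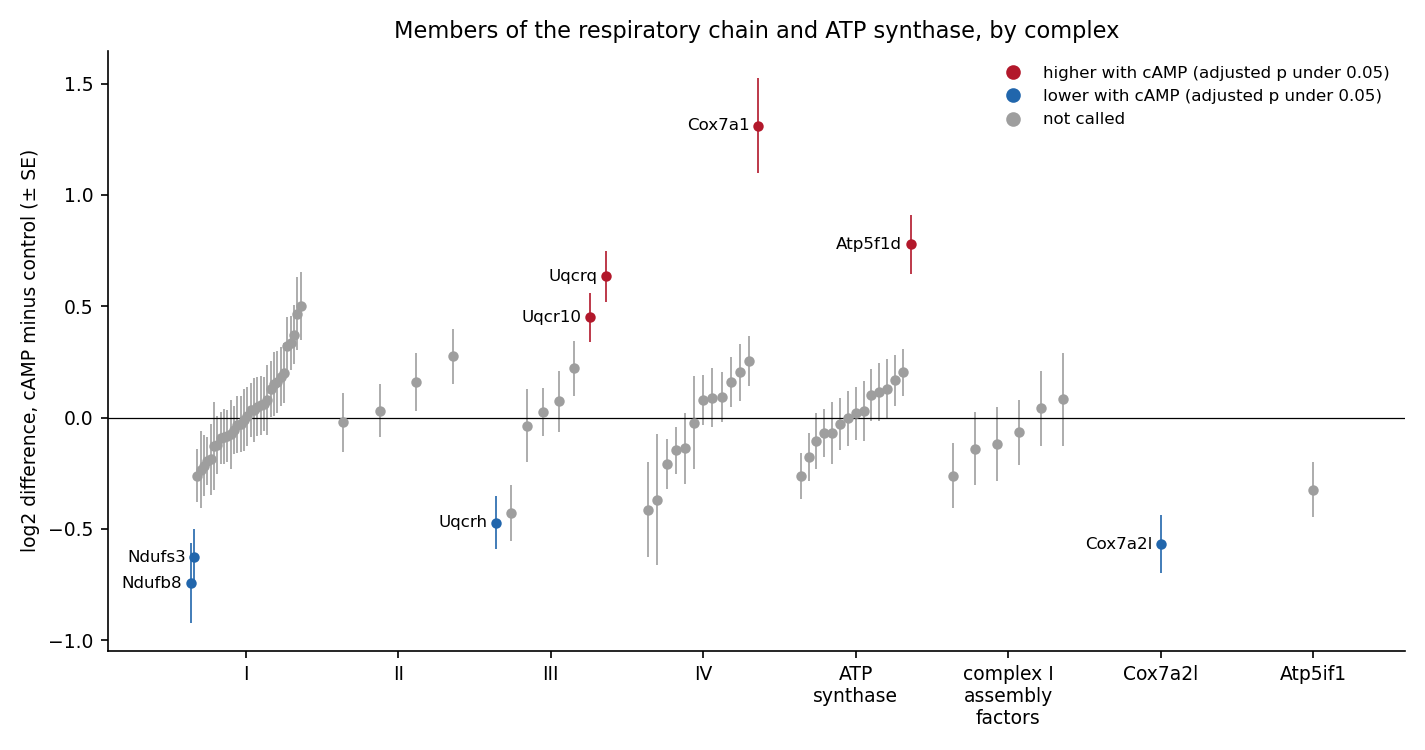
Log2 difference of cAMP minus control on the log2(signal + 16) scale (y axis, bars are the standard error of the fit) for the tested members other than the pseudogene, grouped by complex (x axis) and ordered by size within it. Red and blue points are the 8 members called higher or lower; the complexes lie around 0 and Cox7a1 is the single point above 1.

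By complex, 2 of 34 subunits were called in complex I, both lower, none of 4 in complex II, 3 of 8 in complex III, 1 of 13 tested in complex IV and 1 of 15 in the ATP synthase. The median log2 differences were -0.0029 for complex I, 0.095 for complex II, 0.049 for complex III, 0.08 for complex IV and 0.02 for the ATP synthase. Complex III held 3 of the 8 calls in 8 subunits, and they went in both directions, 2 higher and 1 lower. The other 75 tested members held 5. Whether the complexes differ from one another was not tested. Without the filter on dim probe sets complex III held 1 call, as Uqcr10 and Uqcrh lost theirs, and Ndufb8 and Cox7a2l lost theirs too. Without an intensity trend in the fit it held 0, and of all 8 members Cox7a1 and Atp5f1d alone were still called. The others had adjusted p-values by limma from 0.0535 (Uqcrq) to 0.127 (Uqcrh). Over all named genes, 555 were higher and 455 lower without the filter, and 667 and 544 without the trend, beside 830 and 716 in the main fit. Fewer members, and fewer genes over the whole table, were called in fits without cAMP replicate 1 or without cAMP replicate 2. All 8 calls were lost in both of these fits, which take the spread from the control pair, while the differences kept their sign. Without cAMP replicate 1 and without cAMP replicate 2, Uqcrq differed by 0.60 and 0.66, Ndufs3 by -0.64 and -0.61 and Ndufb8 by -0.80 and -0.69. In fits without 1 array, the lone array of its group is assumed to vary as the other pair does. Without control replicate 1 the counts rose to 7 higher and 8 lower, as those over all genes did, from 830 and 716 to 1445 and 1183.

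Within complex I the calls were Ndufs3 and Ndufb8. Ndufs3, a core subunit of the arm that reaches into the matrix, read 834.4 and 825 on the control arrays and 537.8 and 525.5 with cAMP. The cAMP arrays lay together and well below the control arrays, a log2 difference of -0.63 ± 0.13 (SE; adjusted p by limma = 0.0181). Ndufb8, an accessory subunit of the membrane arm, read 297.1 and 392.9 without cAMP and 206.4 and 189 with it. Its control arrays stood apart from each other, yet both were above the cAMP arrays (-0.74 ± 0.18, adjusted p by limma = 0.0351), and the call was also lost without control replicate 2.

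The core of complex I is the set of subunits that it shares with the bacterial enzyme, and 6 of its nuclear-encoded members were measured. Of the 6, Ndufs3 fell and 5 did not pass. Ndufv2, an iron-sulfur subunit beside the NADH site, read 873.3 and 685.7 in control and 1061 and 1148 with cAMP. Its cAMP arrays were both above the control arrays, but the difference of 0.50 ± 0.15 missed the threshold (adjusted p by limma = 0.0743). Ndufs1, the large iron-sulfur subunit of the same arm, went from 250.4 and 208.4 to 303.9 and 340.8 (0.47 ± 0.16, adjusted p by limma = 0.111). Both passed the threshold in the fit without control replicate 1, which leaves 1 control array and takes the spread from the cAMP pair (adjusted p by limma = 0.00551 and 0.0279). Ndufv1, which holds the flavin and binds NADH, overlapped between the groups (0.15 ± 0.14). The iron-sulfur subunits near the quinone site differed by 0.20 ± 0.13 for Ndufs7 and -0.22 ± 0.14 for Ndufs8. The measured core thus ran from -0.63 to 0.50.

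The 28 accessory subunits of complex I ran from -0.74 for Ndufb8 to 0.37 for Ndufa12. Of these 23 lay within 0.25 of no change, as did 3 of the 6 core subunits, and the difference was not tested. Ndufa12, of the matrix arm, read 1351 and 1355 in control and 1927 and 1601 with cAMP and did not pass (0.37 ± 0.13, adjusted p by limma = 0.114). Ndufa6 read 1172 and 1249 in control and 1009 and 1005 with cAMP (-0.26 ± 0.12, adjusted p by limma = 0.207). None of the 6 assembly factors passed, and their log2 differences ran from -0.26 for Ndufaf8 to 0.08 for Ndufaf1. Ndufaf8 had nearly equal replicates, at 278.5 and 278.6 in control and 230.6 and 229.2 with cAMP (adjusted p by limma = 0.296). Ndufaf4, Ndufaf5 and Ndufaf7 differed by -0.14 ± 0.16, -0.12 ± 0.17 and 0.04 ± 0.17. Ndufaf1 read between 19.4 and 24.7 on the 4 arrays, little above background.

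None of the 4 subunits of complex II passed in the fit by limma, and 0 had an unadjusted p under 0.05. Sdha, the flavoprotein that oxidises succinate, read 1183 and 1067 without cAMP and 1408 and 1318 with it, with the cAMP arrays above (0.27 ± 0.12, adjusted p by limma = 0.201). Sdhb, the iron-sulfur subunit, overlapped between the groups (-0.02 ± 0.13). The membrane anchors Sdhc and Sdhd differed by 0.03 ± 0.12 and 0.16 ± 0.13. A further probe set of Sdhd gave 0.15 ± 0.14. None of the 11 alternative fits called any of the 4 subunits.

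In complex III the median size of the log2 difference without its sign was 0.32, and the 8 subunits ran from -0.47 to 0.63. Uqcrq, a small subunit next to the quinone site, rose from 1298 and 1234 to 2016 and 1933. The arrays of each group lay close together and far from the other group (0.63 ± 0.11, adjusted p by limma = 0.0117). Uqcr10, another small subunit, bound near cytochrome c1, rose from 1959 and 1864 to 2619 and 2616 (0.45 ± 0.11, adjusted p by limma = 0.0356). By symbol, RefSeq names 1 copy of it (a pseudogene or a like gene), whose transcripts its probes might share. Such named copies exist for 43 of the 87 members, and of the 8 called members for Uqcr10 alone.

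Uqcrh, the hinge protein that holds cytochrome c against the complex, went the other way. It read 2551 and 2923 in control and 1990 and 1938 with cAMP (-0.47 ± 0.12, adjusted p by limma = 0.0414). Uqcr11, again a small subunit, lay lower as well, at 809.6 and 867.7 against 626.5 and 611.2, but it missed the threshold (-0.43 ± 0.13, adjusted p by limma = 0.0699). It passed in the same fit with 1 control array (adjusted p by limma = 0.0235). Cyc1, cytochrome c1 itself, read 997.7 and 962.1 in control and 1185 and 1105 with cAMP (0.22 ± 0.12, adjusted p by limma = 0.288).

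The remaining measured subunits of complex III lay near 0. The Rieske iron-sulfur protein Uqcrfs1 differed by 0.02 ± 0.11 and the large core protein Uqcrc1 by -0.04 ± 0.16. For Uqcrc2, the other core protein, the probe set used gave 0.07 ± 0.14 and a further one 0.55 ± 0.21 (adjusted p by limma = 0.134). The latter read 897.8 and 568.4 in control and 1072 and 1035 with cAMP, with control replicate 2 apart from the others. Uqcrfs1 and Uqcrc2 were named here after their values were seen, so that all 8 measured subunits are given. Uqcrb, another subunit, was not analysed, since its probe set carries several symbols.

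**Figure D2:**
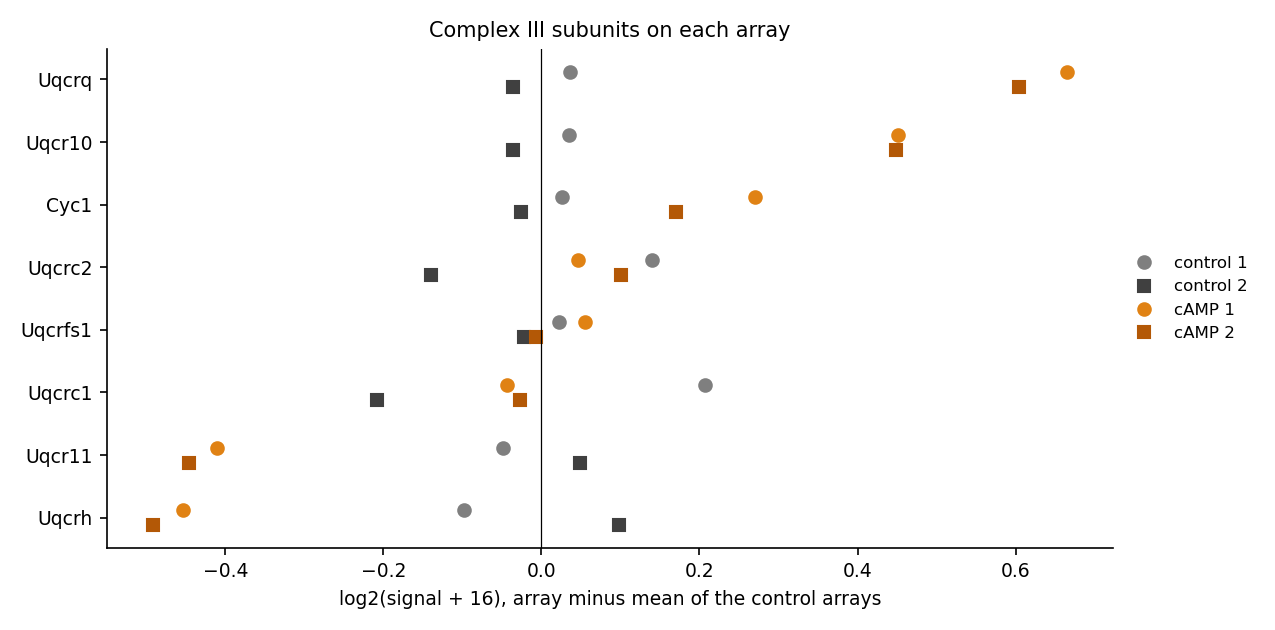
Complex III subunits (y axis, ordered by log2 difference) on each of the 4 arrays, as log2(signal + 16) minus the mean of the control arrays (x axis); grey marks are control and orange marks cAMP, circles replicate 1 and squares replicate 2. Uqcrq and Uqcr10 lie to the right on both cAMP arrays, Uqcr11 and Uqcrh to the left, and the groups overlap for Uqcrc2, Uqcrfs1 and Uqcrc1.

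The promoters of the opposite pair Uqcrq and Uqcrh are shown because the same short motif, the ETS core CCGGAAG bound by factors such as GABP (also called NRF-2), occurs in both. The promoter of Ndufb8 is shown because it holds the YY1 core AAGATGG, and that of Cox7a1, described next, because it had the largest change and holds none of the motifs searched. Each window runs from 250 bases before to 50 bases after the start of the gene in RefSeq's annotation of GRCr8, 5' to 3' on the gene's strand, with motif matches in capitals. Uqcrq lies at chr10:38089929-38090228, minus strand, Uqcrh at chr5:134790833-134791132, minus strand, Ndufb8 at chr1:253362887-253363186, minus strand, and Cox7a1 at chr1:94568966-94569265, plus strand.
Uqcrq: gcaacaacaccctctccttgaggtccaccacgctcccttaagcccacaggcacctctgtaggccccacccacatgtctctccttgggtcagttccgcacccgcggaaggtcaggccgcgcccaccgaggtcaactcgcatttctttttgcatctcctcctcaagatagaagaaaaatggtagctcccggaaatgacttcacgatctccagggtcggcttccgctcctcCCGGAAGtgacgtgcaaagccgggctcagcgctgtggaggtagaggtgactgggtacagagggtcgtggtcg
Uqcrh: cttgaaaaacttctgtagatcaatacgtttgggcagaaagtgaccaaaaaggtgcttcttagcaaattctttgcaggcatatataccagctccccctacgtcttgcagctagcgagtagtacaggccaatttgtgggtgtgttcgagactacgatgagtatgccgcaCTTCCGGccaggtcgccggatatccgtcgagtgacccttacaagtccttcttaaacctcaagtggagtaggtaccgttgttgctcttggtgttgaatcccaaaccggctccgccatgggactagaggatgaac
Ndufb8: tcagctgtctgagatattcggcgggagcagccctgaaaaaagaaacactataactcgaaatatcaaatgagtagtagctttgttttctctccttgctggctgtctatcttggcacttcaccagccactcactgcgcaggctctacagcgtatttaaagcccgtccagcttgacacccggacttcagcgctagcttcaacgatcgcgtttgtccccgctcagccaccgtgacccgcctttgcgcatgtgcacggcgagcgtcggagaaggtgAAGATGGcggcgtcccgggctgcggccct
Cox7a1: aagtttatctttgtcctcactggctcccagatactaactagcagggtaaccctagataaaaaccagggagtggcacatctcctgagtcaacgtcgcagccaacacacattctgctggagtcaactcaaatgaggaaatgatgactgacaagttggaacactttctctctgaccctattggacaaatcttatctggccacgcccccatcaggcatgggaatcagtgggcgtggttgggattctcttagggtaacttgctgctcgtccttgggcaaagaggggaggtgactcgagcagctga

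In Uqcrq the match starts 22 bases before the gene start, on the gene's strand, and in Uqcrh it starts 83 bases before it, on the opposite strand. In Ndufb8 the YY1 match starts at base 22 after the start. Over the 78 members with a promoter in the table, CCGGAAG was found on either strand in 22, or 28.2%, beside 8.75% of all 33469 promoters. AAGATGG was found in 20 members, or 25.6%, beside 7.01% of all. The NRF1 core GCGCATGC stood in 9, or 11.5%, beside 2.47%, and the cAMP response element TGACGTCA in 3, or 3.85%, beside 1.83%. The table of all promoters also holds non-coding and predicted genes, and base composition was not matched. A match is a description of the letters, not a bound site. Of the 8 called members, 2 held CCGGAAG and 1 AAGATGG. None held TGACGTCA, GCGCATGC or a second kind of motif. Only full, exact matches were counted, so partial matches such as TGACG alone were not searched. The 3 members with TGACGTCA in this window were Ndufb2, Sdhb and Cox8a, none of which was called.

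In complex IV the single call was Cox7a1, the form of subunit VIIa found in heart and skeletal muscle. It read 35.6 and 51.5 in control and 142.3 and 119.6 with cAMP. It had the largest difference of all members, with both cAMP arrays far above both control arrays (1.31 ± 0.21, adjusted p by limma = 0.00771). All 4 values lay above background. The markers of peritubular myoid cells, a smooth-muscle-like type of the tubule wall, read 641.6 and 494.5 in control and 195.4 and 245.1 with cAMP, summed over their 8 probe sets. Tagln made most of that difference: without it the other 7 read 297.1 and 230.2 in control and 194.1 and 237.7 with cAMP, and the groups overlapped. Of the 6 tested, 1 rose (Des) and 2 fell (Tagln and Synpo2), and none of the 8 was at background on every array. Their part in the result was not tested.

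The other muscle and tissue forms were dim. Cox8b, the muscle form of subunit VIII, read 29.8 and 26.8 in control and lay at background with cAMP, listed at 1.1 and 0.9. Its control signal was at least 1.99-fold that with cAMP, computed with the cAMP values raised to background. It fell below the limit for testing, and without that limit it was called lower (adjusted p by limma = 0.0152), a fit that takes the cAMP values below background as they stand. Cox4i2, the lung form of subunit IV, and Cox6a2, the muscle form of subunit VIa, lay at background on all arrays, from 0.6 to 9.6. Ndufa4l2, known as a target of hypoxia-inducible factors, read 2 and 3.2 in control and 9.6 and 16.2 with cAMP, where 1 value lay above background.

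Cox7a2, the counterpart of Cox7a1 in most tissues, was not analysed here, since its probe set carries a second symbol. Of the other forms found in most tissues that have a tissue-limited counterpart, none was called. Their log2 differences ran from -0.15 ± 0.11 for Cox4i1 to 0.25 ± 0.11 for Cox6a1, which read 1700 and 1711 in control and 2085 and 1990 with cAMP. Cox7b (0.20 ± 0.13), Ndufa4 (0.16 ± 0.11) and Cox6b1 (0.09 ± 0.11) had both cAMP arrays above the control arrays, and Cox8a (0.09 ± 0.13) overlapped. Cox6c, a small subunit with no other form here, read 4153 and 4709 in control and 3781 and 3874 with cAMP (-0.21 ± 0.11). The pseudogene Cox6c-ps1 read between 29.5 and 42.3 on the 4 arrays (-0.08 ± 0.22).

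The forms Cox6b2 and Cox7b2, known from testis, were well above background on every array. Cox7b2 read 772.8 and 880.4 in control and 770.3 and 490.3 with cAMP (-0.41 ± 0.21, adjusted p by limma = 0.257): cAMP replicate 1 read as the lower control array did, and cAMP replicate 2 stood below both. Cox6b2 read 286.1 and 181.8 in control and 228.5 and 130.6 with cAMP, with the groups overlapping (-0.37 ± 0.29, adjusted p by limma = 0.466). The germ cell markers Sycp3, Ldhc and Tex101 showed the same low array. Sycp3, of the meiotic chromosome axis, read 2340 and 2298 in control and 2258 and 1754 with cAMP. Ldhc, the lactate dehydrogenase of germ cells, read 811.6 and 627.2 against 659.7 and 427.4, and Tex101, a germ cell surface protein, 706.1 and 595.7 against 683.5 and 459. All 5 genes were thus lowest on cAMP replicate 2. Of the 15 germ cell markers on the list, 9 had a named probe set, 3 were tested and none was called by limma. Summed over the 9, the signal was 3898 and 3549 in control and 3649 and 2661 with cAMP. The spermatid markers Prm1, Tnp1 and Tnp2 lay at background on every array. The part of germ cells in the values of Cox6b2 and Cox7b2 was not tested.

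**Figure D3:**
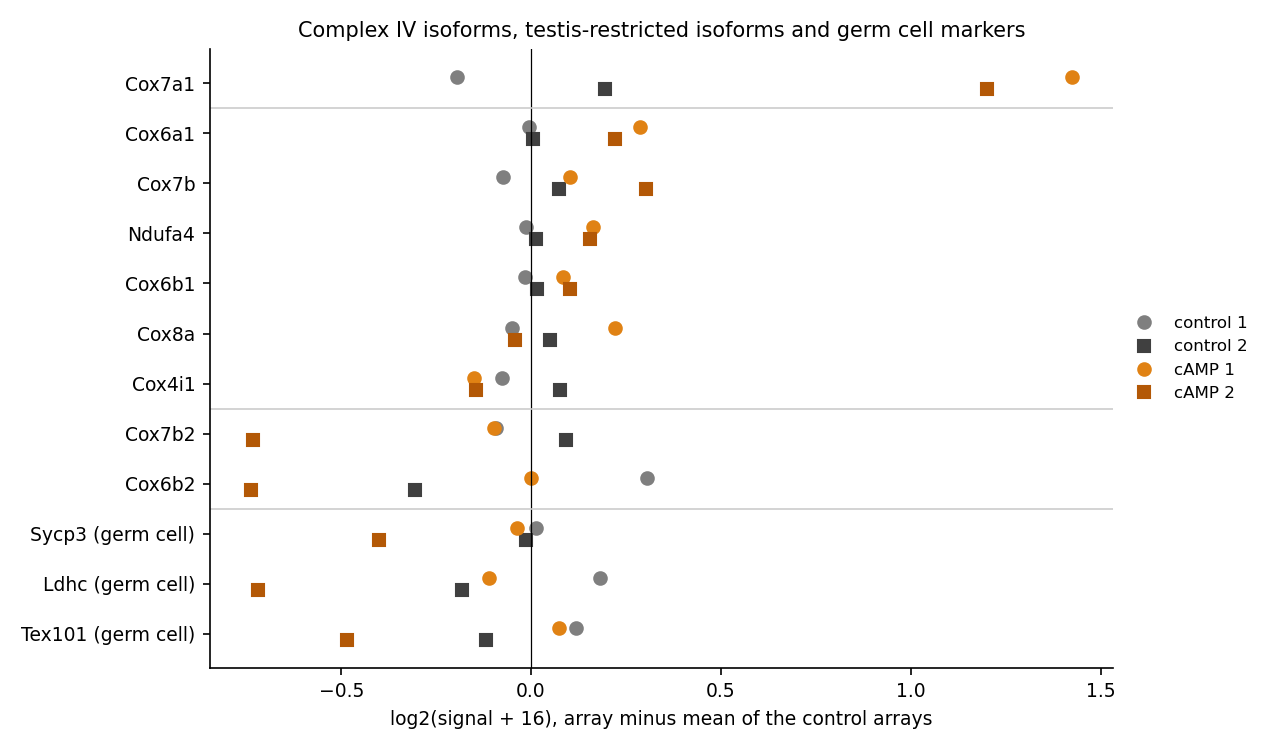
Genes of complex IV and 3 germ cell markers (y axis) on each of the 4 arrays, as log2(signal + 16) minus the mean of the control arrays (x axis); grey marks are control and orange marks cAMP, circles replicate 1 and squares replicate 2. From top to bottom stand the muscle form Cox7a1, the forms of most tissues, the testis forms and the germ cell markers; the last 5 genes are all lowest on cAMP replicate 2.

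Cox7a2l, a relative of subunit VIIa that joins complexes III and IV into supercomplexes, fell. It read 1801 and 2150 in control and 1339 and 1305 with cAMP, with both cAMP arrays below (-0.57 ± 0.13, adjusted p by limma = 0.0295).

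In the ATP synthase, the call was Atp5f1d, the delta subunit at the foot of the rotating central stalk. It rose from 666.3 and 587.2 to 1060 and 1110, with the arrays of each group close together (0.78 ± 0.13, adjusted p by limma = 0.00901). The differences of the rest lay in a narrow range, with 13 of its 15 subunits within 0.25 of no change. The alpha subunit Atp5f1a of the catalytic head read 1828 and 1670 in control and 1972 and 1954 with cAMP (0.17 ± 0.12, adjusted p by limma = 0.398). Atp5mk, a small membrane subunit, differed by 0.20 ± 0.11.

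On the lower side stood Atp5mc3, 1 of the genes for subunit c of the proton-driven ring. It read 3515 and 3674 in control and 3018 and 2972 with cAMP (-0.26 ± 0.10, adjusted p by limma = 0.151). The peripheral stalk gene Atp5pb (-0.18 ± 0.11) and the small membrane subunit Atp5mpl (-0.11 ± 0.12) did not pass. Atp5if1, which stops the enzyme from running backwards and splitting ATP, read 951 and 995.8 in control and 778.4 and 770.7 with cAMP. Both cAMP arrays lay below, but the difference missed the threshold (-0.32 ± 0.12, adjusted p by limma = 0.134).

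**Figure D4:**
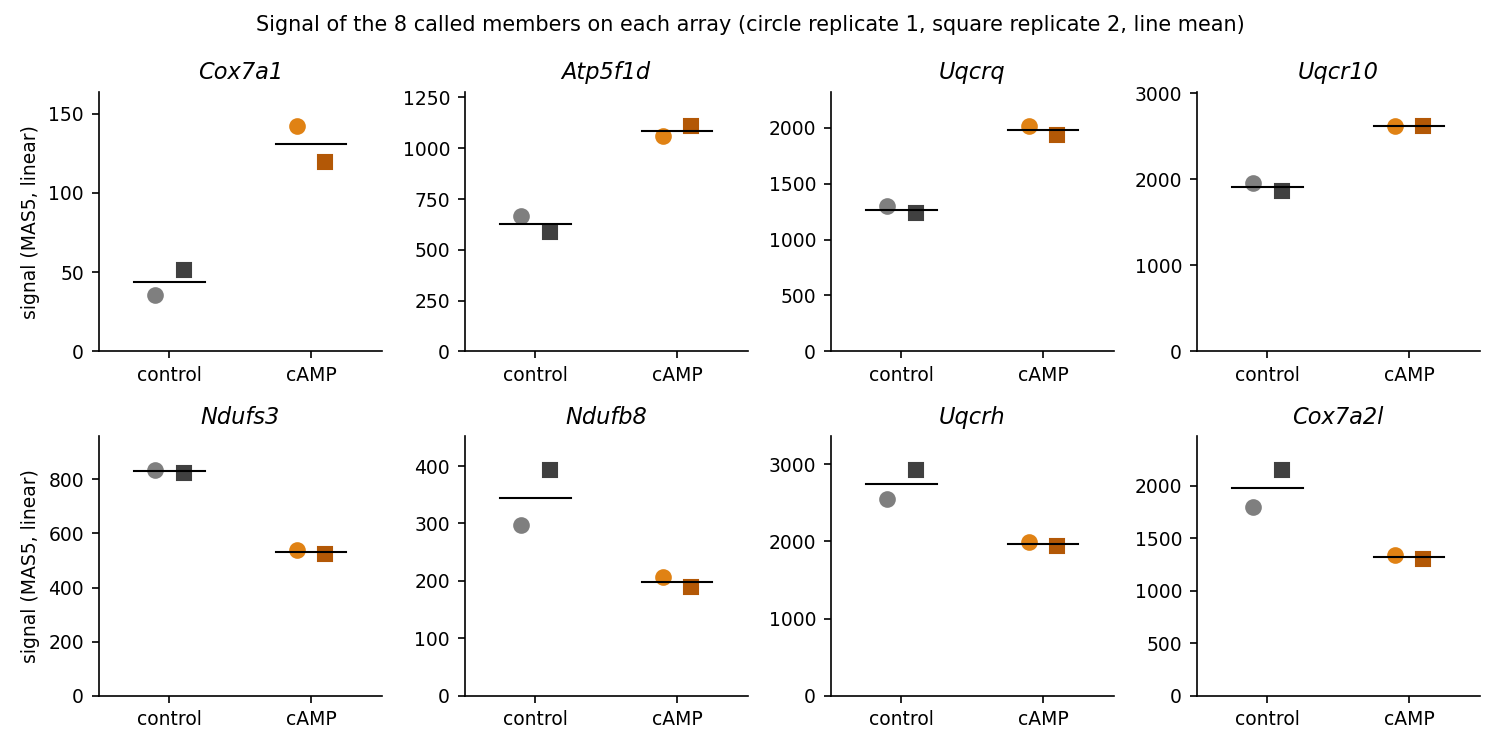
MAS5 signal on a linear scale from 0 (y axis) of the 8 called members on each of the 2 control and 2 cAMP arrays (x axis); circles are replicate 1, squares replicate 2 and lines the group means. In every panel both cAMP arrays lie beyond both control arrays, above in the top row and below in the bottom row.

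For 9 members the array held more than 1 probe set, 10 further ones in all, of which 6 were bright enough to test. None of the 6 was called. For Ndufa7 the probe set used and the further one had opposite signs, -0.09 ± 0.12 and 0.29 ± 0.23, neither of which passed. None of the 8 called members had a further named probe set, so each of their calls rests on 1 probe set.

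Most genes around the chain did not pass either, but a few differed by more than any subunit did. The counts called in the lists that follow stand beside the 15.4% called over all named genes and are descriptions. The alternative fits were not examined for the genes of these lists. Of 36 tested assembly and biogenesis factors, 1 rose and 2 fell (median log2 difference -0.048). Sdhaf1, which helps to load iron-sulfur clusters into complex II, rose from 379 ± 18.3 to 648 ± 64.1 (mean ± SD, n = 2 arrays; log2 difference 0.75 ± 0.14). Sco1, which delivers copper to complex IV, fell by 0.67 ± 0.16 (adjusted p by limma = 0.0312). The complex IV assembly gene Cox16 fell by 0.52 ± 0.14, close to the threshold (adjusted p by limma = 0.0456). Sdhaf1 thus rose while no subunit of complex II was called.

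Of 18 electron carrier and ubiquinone synthesis genes on the list, 15 had a named probe set, and all 15 were tested. Cytochrome c (Cycs and Cyct) and Pdss1 were not among them. Of the 15, 1 rose and 1 fell (median 0.063). Coq10b, a ubiquinone-binding protein, rose from 282.5 and 163.5 to 1053 and 917 (2.11 ± 0.24, adjusted p by limma = 0.00166). Coq8a, an atypical kinase needed for ubiquinone synthesis, fell from 446.7 and 345.1 to 72 and 80.8 (-2.15 ± 0.18, adjusted p by limma = 0.000526). Both differences exceeded that of any member of the chain.

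Of 12 tested genes of the tricarboxylic acid cycle, which feeds the chain with NADH and succinate, 1 rose and 1 fell (median 0.17). They were both isocitrate dehydrogenases: Idh3a, a subunit of the NAD-dependent enzyme, rose from 200.1 and 157.2 to 1124 and 1220 (2.62 ± 0.16), and Idh2, the NADP-dependent enzyme, fell from 414.2 and 399 to 66.7 and 85.4 (-2.21 ± 0.17). The other subunits of the NAD-dependent enzyme on the array, Idh3b and Idh3g, were not called.

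Of 16 tested regulators of mitochondrial gene expression, 1 fell and none rose (median 0.012). It was Sirt3, the main deacetylase of the matrix, which went from 343.4 and 370 to 202.8 and 151.4 (-0.96 ± 0.18, adjusted p by limma = 0.0138). Nrf1 (0.24 ± 0.19), Gabpa (-0.05 ± 0.16), Yy1 (0.31 ± 0.13), Esrra (0.42 ± 0.20) and the mitochondrial DNA packaging factor Tfam (-0.28 ± 0.14) were not called. The coactivator Ppargc1a read between 3.8 and 18 and lay below the limit for testing. Of 10 tested genes of ATP export and proton leak, 1 rose, the ADP/ATP carrier Slc25a5, from 1887 and 2067 to 3305 and 2731 (0.60 ± 0.13, adjusted p by limma = 0.0256). Another ADP/ATP carrier, Slc25a4, lay lower with cAMP but was not called. It read 2863 and 3664 in control and 2094 and 2436 with cAMP (-0.52 ± 0.15, adjusted p by limma = 0.0665). The 13 subunits encoded by mitochondrial DNA were not analysed here.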

How the data were processed

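Expression was measured in 4 Sertoli cell cultures, 2 with cAMP and 2 untreated. The deposited file holds 1 linear intensity per probe set and array. The authors used GCOS and MAS5 (named in the submitters' processing notes), and no version or setting is stated there. The 2% trimmed mean was 125 on every array, so the arrays had been scaled before deposit. A platform annotation named 20826 probe sets with 1 gene symbol; 436 with several and 9831 with none were left unnamed.

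The deposited intensities were turned into log2(signal + 16), a pseudocount of 16, without renormalizing. Of the probe sets other than the 57 controls, the 18625 with a mean at or above the 40th percentile (log2 5.10) were tested, in R 4.3.3 with limma 3.58.1 (lmFit, eBayes with an intensity trend, two-sided) and Benjamini-Hochberg adjustment. The fit was also run on simulated arrays with independent noise and changes larger than those of most members. That run does not show how well smaller differences are found. Log2 differences are given with their standard errors and understate the change of dim genes.

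The members and lists were chosen with earlier results of these data known. Named members are those called, the 3 largest differences of each sign in a complex, complex II, the core of complex I, and tissue forms with their partners; of other lists, the genes called and up to 4 with the smallest p. Others were named after their values were seen. Alternatives were 2 pseudocounts, no filter, quantile normalization, median centring, no trend, a replicate block, and each array left out. Promoters were matched by gene ID to RefSeq's GRCr8 table.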

Additional observations from a re-analysis of the deposited data

How the results depend on the processing

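Under the 11 alternative fits no called member changed direction. Pseudocounts of 64 and 1, median centring and the choice of probe set or symbol left every count within 1.5 times its value. Without the filter on dim probe sets, 873 probe sets were higher and 725 lower, with 555 named genes higher and 455 lower. Of the members 2 were then lower, Ndufs3 and Cox8b, so that complex I held 1 call, complex III 1 and complex IV 2. Without an intensity trend 2 members were higher (Cox7a1 and Atp5f1d) and 0 lower, with 0 calls in complex I and 0 in complex III. Over all named genes 667 were higher and 544 lower in that fit, where limma gave 11 members an unadjusted p under 0.05. Quantile normalization moved the median log2 difference to -0.024 for the members, 0.020 for complex IV and -0.064 for the ATP synthase.

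Leaving out 1 array mattered most. Probe sets ranged from 396 to 2467 higher and from 314 to 2381 lower, named genes from 262 to 1445 and from 204 to 1183. Members ranged from 0 to 7 higher and from 0 to 8 lower, and calls from 0 to 5 in complex I, 0 to 4 in complex III, 0 to 3 in complex IV and 0 to 2 in the ATP synthase. The lowest counts came without cAMP replicate 1 or cAMP replicate 2 and the highest without control replicate 1; the cause was not tested. The medians ranged from -0.023 to 0.044 for the members, -0.035 to 0.037 for complex I, 0.046 to 0.13 for complex II, -0.032 to 0.19 for complex III, -0.042 to 0.11 for complex IV and -0.040 to 0.057 for the ATP synthase. Of the uncalled members, 30 changed sign in at least 1 alternative without passing.

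The labels number the replicates 1 and 2 in both groups, and deviations of same-numbered arrays from their group means correlated at 0.163 across probe sets, which with 2 numbers does not show a pairing. With the replicate block 1540 probe sets were higher and 1495 lower, and 4 members were higher and 4 lower. With 2 arrays per group, small differences in dim probe sets could not be told from the spread.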
